A study of Mus musculus with 20 samples.

Results

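The small proline-rich protein genes Sprr1a, Sprr1b, Sprr2d, Sprr2f and Sprr2h were followed through the keratinocytes of growing mouse back skin in control and Fgf5-/- mice. These 5 genes were taken by symbol from the feature table shared by both deposited matrices, in which 15 of 31055 features have a symbol that starts with Sprr. Small proline-rich proteins are precursors of the cornified envelope, the protein shell that replaces the plasma membrane of a keratinocyte at the end of its differentiation. Transglutaminases cross-link them to loricrin, involucrin and other envelope proteins, between which they act as bridges. Their genes lie in the epidermal differentiation complex, and Sprr1 and Sprr2 genes are known to be induced when the epidermis is wounded, irritated or inflamed.

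The cells came from dorsal skin epidermis in anagen, when hair follicles grow, and their RNA was counted as unique molecular identifiers (UMIs), tags that mark single captured molecules. The control group has 4 listed samples of Nfatc1-CreER;R26R;mTmG mice that received tamoxifen for 3 days from postnatal day 21 or 22. The mutant group has 16 listed samples of mice that carried the same 3 transgenes and were Fgf5-/- as well, with tamoxifen for 3 days from postnatal day 23 or 24. Both groups therefore carry a tamoxifen-inducible Cre driven by Nfatc1, a gene of hair follicle bulge stem cells, and 2 reporters, and neither group is free of transgenes or tamoxifen. The start of tamoxifen and the genotype cannot be told apart. The labels describe neither the Fgf5 allele nor the sex and age of the mice at harvest, and leave unsaid whether listed samples were different mice. All samples of a group were pooled in 1 matrix with no map from cells to samples, so each group counts as 1 library, no p-value was computed, and every interval given here covers counting error only.

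All 5 genes lie within 146.8 kb of chromosome 3 (GRCm38, GENCODE vM21 annotation) and are protein-coding genes of 2 exons. Sprr2d (ENSMUSG00000042212) spans 92339140 to 92340873, Sprr2f (ENSMUSG00000050635) spans 92365187 to 92366442 and Sprr2h (ENSMUSG00000046259) spans 92385685 to 92387324, all on the plus strand. Sprr1b (ENSMUSG00000048455, 92436809 to 92438789) and Sprr1a (ENSMUSG00000050359, 92483952 to 92485895) lie at higher coordinates on the minus strand. The libraries read the 3' end of each transcript. None of the 311 windows of 90 bases, an assumed read length, in the last 400 bases of each of the 5 transcripts occurred in a transcript of another gene. Mismatches were counted without gaps for every 5th window, so closer windows may exist. Among these, the closest window in another Sprr transcript differed at 4 bases for Sprr2f (in Sprr2d). It differed at 6 for Sprr2d and 8 for Sprr2h (both in Sprr2e), and at 13 for Sprr1a and Sprr1b (in each other). Counts of the Sprr2 genes can therefore rest in part on few distinguishing bases, and misassigned reads among them were not tested.

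The promoters of the 5 genes are shown because all 5 genes were higher in the suprabasal-like cells of the mutant library and because they share short words. Each line gives the RefSeq sequence (GRCm38.p6) from 205 to 16 bases before the transcription start, 5′ to 3′ on the gene's own strand. The capitals mark the AP-1 word TGANTCA, the octamer word ATGCAAAT (here on the opposite strand, as ATTTGCAT) and the TATA box word TATAAA. The stretches are chr3:92485897-92486086 for Sprr1a and chr3:92438795-92438984 for Sprr1b (minus strand), and chr3:92338935-92339124 for Sprr2d, chr3:92364982-92365171 for Sprr2f and chr3:92385480-92385669 for Sprr2h (plus strand).
Sprr1a: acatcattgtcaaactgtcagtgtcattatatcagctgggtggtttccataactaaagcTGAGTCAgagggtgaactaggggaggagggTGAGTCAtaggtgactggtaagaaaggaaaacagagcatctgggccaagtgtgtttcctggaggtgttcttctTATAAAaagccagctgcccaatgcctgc
Sprr1b: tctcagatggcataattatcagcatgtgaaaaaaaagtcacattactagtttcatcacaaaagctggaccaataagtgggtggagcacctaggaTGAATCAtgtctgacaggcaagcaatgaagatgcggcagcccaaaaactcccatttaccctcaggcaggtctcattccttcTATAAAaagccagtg
Sprr2d: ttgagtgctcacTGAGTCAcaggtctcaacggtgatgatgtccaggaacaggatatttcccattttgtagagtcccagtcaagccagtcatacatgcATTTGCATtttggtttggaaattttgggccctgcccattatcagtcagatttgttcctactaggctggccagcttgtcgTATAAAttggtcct
Sprr2f: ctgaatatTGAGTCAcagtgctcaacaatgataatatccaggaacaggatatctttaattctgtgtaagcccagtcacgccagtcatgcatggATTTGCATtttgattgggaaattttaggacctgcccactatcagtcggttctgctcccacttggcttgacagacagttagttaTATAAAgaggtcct
Sprr2h: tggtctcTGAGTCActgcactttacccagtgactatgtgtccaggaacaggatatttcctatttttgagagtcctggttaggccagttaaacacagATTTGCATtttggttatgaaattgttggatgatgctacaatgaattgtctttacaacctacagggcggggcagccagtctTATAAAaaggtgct

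AP-1 is the dimer of Fos and Jun family proteins. On either strand of the 250 bases before the start, TGANTCA occurred in 5 of the 5 promoters, in 9 of the 14 Sprr promoters of the RefSeq table and in 6.75% of all 32851 promoters of that table. The word begins 193 bases before the start of Sprr2d, 197 before that of Sprr2f and 198 before that of Sprr2h, so the 3 Sprr2 genes have it at nearly the same place. Sprr1b has it 111 bases before its start, and Sprr1a has 2 copies, 146 and 116 bases before its start. The octamer word was found in the 3 Sprr2 members and in neither Sprr1 member, in 7 of the 14 Sprr promoters and in 1.6% of all promoters. TATAAA was found in all 5 members, in 10 of the 14 Sprr promoters and in 12.4% of all. The ETS word GGAA also occurred in all 5, but in 93.4% of all promoters too, and CACCC occurred in Sprr1a and Sprr1b alone among the 5 and in 52.0% of all. In Sprr1a, the nearer AP-1 word and a CACCC word share 2 bases. Over the 150 bases before the start, the Sprr2 promoters were 64.5% to 76.0% identical to each other, Sprr1a and Sprr1b were 54.3% identical, and a Sprr1 and a Sprr2 promoter were 44.5% to 51.3% identical. A match of letters is a description of the sequence and not a measured binding site.

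After filtering, 13743 control cells with 129921951 UMIs and 11047 mutant cells with 88300305 UMIs were analysed, with medians of 5583 and 6003 UMIs per cell and of 3.21% and 4.93% mitochondrial UMIs. The matrices shared 59 cell barcodes out of 16973 and 13411. Fgf5 transcripts were counted in the outer root sheath-like cells of both libraries, at 49.6 CPM in the control and 57.8 CPM in the mutant, where CPM is a gene's share of all UMIs of the cells multiplied by 1000000. A 3' tag need not lie in the part of Fgf5 that the allele removes, so this does not check the genotype. Cells were clustered without Sprr genes, and 8 keratinocyte classes were compared, each of 200 or more cells per library. A ratio of 2-fold or more is called large, and only then described as a rise or fall, where the 95% interval stays beyond 1.5-fold and the higher library reaches 100 CPM. These intervals and levels come from 1 library a group, so a large ratio is a size and not a test.

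Over all kept cells, the transcripts of the 5 genes were more abundant in the mutant library. Sprr1a stood at 215 CPM in the control library and at 627 CPM in the mutant library. The level of Sprr1b was 13.4 CPM in the control and 52.7 CPM in the mutant. Sprr2d, Sprr2f and Sprr2h were close to absent from the control library, at 0.416, 1.45 and 0.939 CPM, and stood at 16, 33.4 and 27.3 CPM in the mutant library. The suprabasal-like cells held 97.9% of the Sprr2d, 90.5% of the Sprr2f and 92.8% of the Sprr2h UMIs of the mutant library. They also held 85.2% of its Sprr1b UMIs and 62.2% of its Sprr1a UMIs. In the control library the same class held 7.67% of the Sprr1a and 36.8% of the Sprr1b UMIs, and 43.6% of the Sprr1a UMIs came from inner root sheath-like cells. Part of this shift is a matter of cell numbers, since suprabasal-like cells were 1.64% of the control and 4.86% of the mutant cells and inner root sheath-like cells 5.55% and 2.16%. The levels within classes do not depend on those numbers and are given next.

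**Figure D1:**
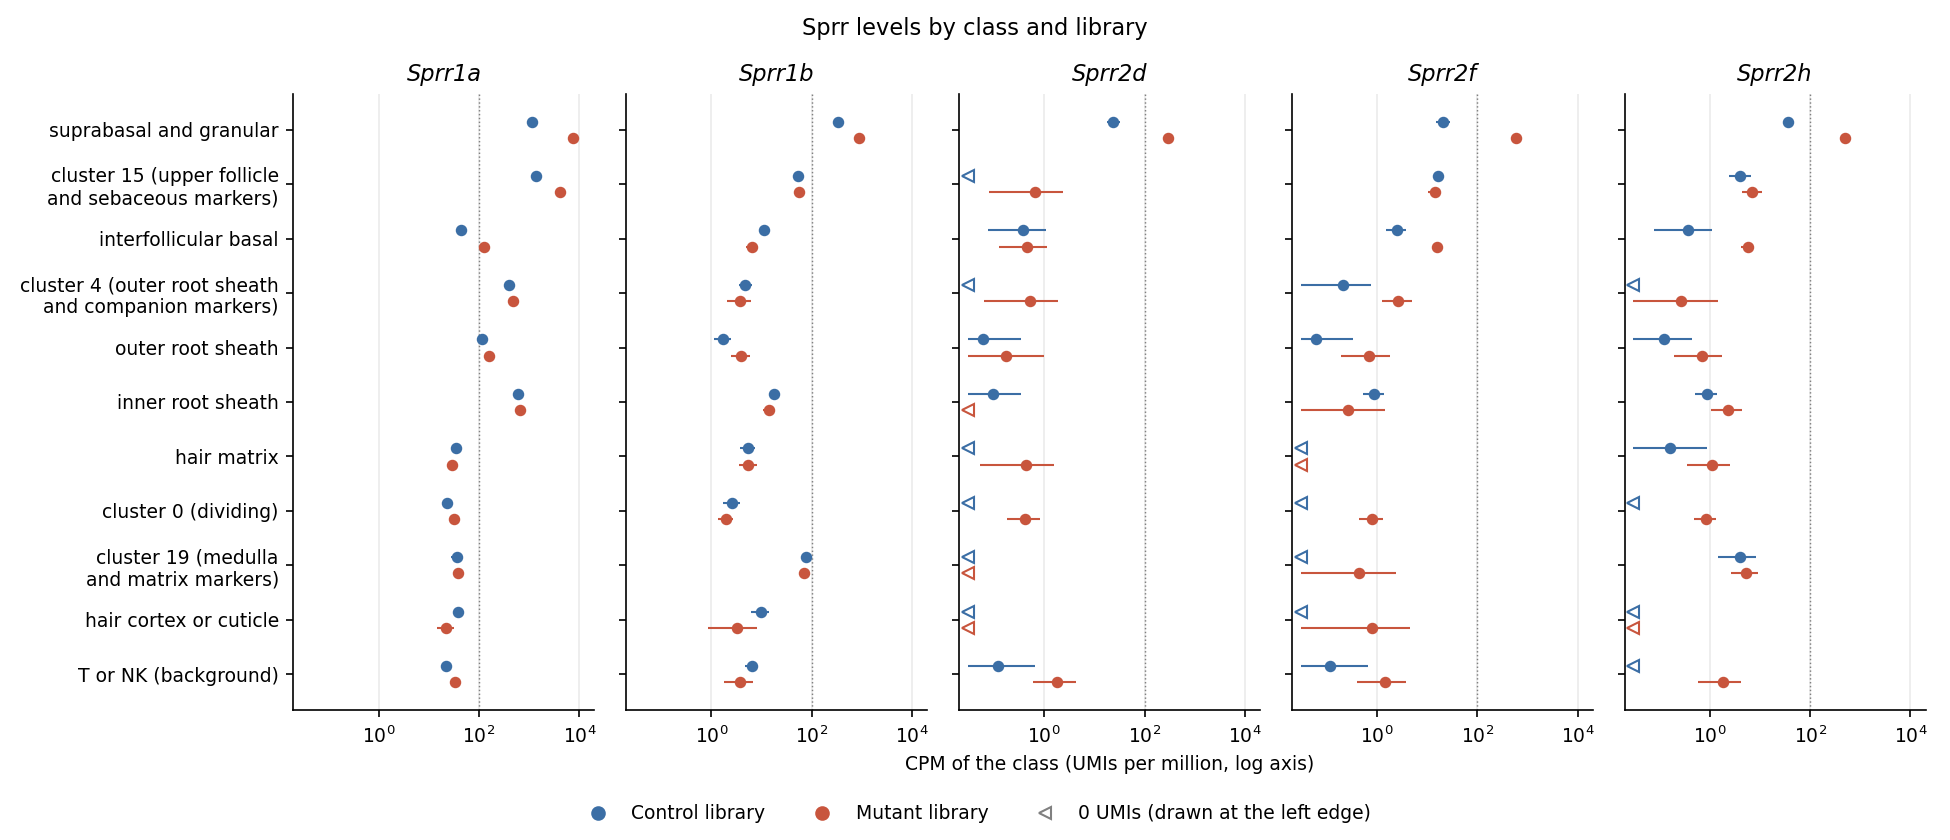
Level of each gene in CPM (log axis) in 10 keratinocyte classes and in T or NK cells, in the control (blue) and mutant (red) library, with exact 95% Poisson intervals and the 100 CPM minimum as a dotted line. The suprabasal and granular row holds the highest mutant level of all 5 genes, and in cluster 15 the libraries are apart for Sprr1a.

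The suprabasal-like class (cluster 13, 226 control and 537 mutant cells) carries the markers that name it. All 9 suprabasal markers, among them the keratins Krt1 and Krt10, and 8 of the 9 granular markers were above 10 CPM in both libraries. Sprr1a, an early envelope precursor, was at 1117 CPM in the control (interval 1070 to 1166) and at 7466 CPM in the mutant (7387 to 7545), a log2 difference of 2.74 (2.68 to 2.80). Sprr1b, its closest relative, was at 334 CPM (309 to 361) and 860 CPM (833 to 887), a log2 difference of 1.36 (1.24 to 1.49). Both Sprr1 genes were thus well expressed in the control cells and higher in the mutant cells.

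The Sprr2 genes started from much lower control levels. Sprr2d was at 24.0 CPM in the control (46 UMIs) and 299 CPM in the mutant, a log2 difference of 3.64 (3.21 to 4.09). Sprr2f was at 20.9 CPM (40 UMIs) and 579 CPM, a difference of 4.79 (4.34 to 5.28), and Sprr2h was at 36.6 CPM (70 UMIs) and 485 CPM, a difference of 3.73 (3.38 to 4.09). All 5 members rose by the size rule in this class, in which 10.9% of the 1636 genes at 100 CPM or more were called higher in the mutant. The median of all genes in the class was -0.28 on the log2 scale, and scaling with TMM factors adds 0.49 to each ratio of the class, so the direction of the 5 genes was the same under either scaling.

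The ratios differed between members. The interval of the Sprr2f ratio lay above those of the other 4 genes, those of Sprr2d and Sprr2h overlapped, and Sprr1b had the lowest ratio. These intervals treat UMIs as independent and leave out spread between cells. In the control, 50% of the UMIs lay in 3 cells for Sprr2d, 3 for Sprr2f and 4 for Sprr2h. The order of the Sprr2 genes is therefore not settled by the intervals. For Sprr1b the call was lost at a 4-fold threshold, and in the 18 control and 40 mutant cells with a UMI of Lor, the main protein of the finished envelope, its level was 732 and 866 CPM (log2 difference 0.24, -0.03 to 0.53). In those same Lor cells Sprr1a stood at 1623 and 9017 CPM and Sprr2d at 22.7 and 600 CPM. The order among the Sprr2 genes was different there, with Sprr2f at 45.5 and 290 CPM (log2 2.67) and Sprr2h at 54.5 and 382 CPM (log2 2.81) below Sprr2d (log2 4.72), and at a clustering resolution of 0.5 Sprr2f (3.91) was below Sprr2h (4.10) too. In the 208 control and 497 mutant cells without a Lor UMI, Sprr1b stood at 283 and 859 CPM and Sprr1a at 1052 and 7327 CPM.

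A finer clustering split this class into a Krt1-rich part with little Lor (finer cluster 19, 198 control and 330 mutant cells) and a part with Lor, Flg and the upper follicle genes Krt79 and Cst6 (finer cluster 34, 28 and 205 cells). The second part made up 12.4% of the control and 38.2% of the mutant cells of the class, so the libraries differ in the makeup of the class, and the parts are given separately. In the Krt1-rich part Sprr1a was at 641 CPM in the control and 3614 CPM in the mutant (log2 2.50, 2.40 to 2.59). In the Lor and Krt79 part it was at 3062 and 11670 CPM (log2 1.93, 1.85 to 2.02). Sprr1a was thus higher in the mutant in each part, by 5.63-fold and 3.81-fold against 6.68-fold in the whole class. The parts themselves were not alike in the libraries. In the Lor and Krt79 part, Lor was at 6342 and 1366 CPM, Cst6 at 21650 and 7699 CPM and Asprv1 at 1900 and 8606 CPM. In the whole class 40 mutant cells had a Lor UMI, so most mutant cells of this part had none. In the Krt1-rich part, Krt1 was at 3731 and 1740 CPM. The split therefore does not remove the difference in makeup.

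The Sprr2 genes differed from each other between these parts. Sprr2d was at 5.85 CPM in the control and 129 CPM in the mutant in the Krt1-rich part, and at 98.4 and 485 CPM in the Lor and Krt79 part, so it was higher in the latter part in both libraries. Sprr2f was level between the parts in the mutant library, at 582 and 578 CPM. In the control it was at 24.7 CPM in the Krt1-rich part and at 5.32 CPM, from 2 UMIs, in the other. Sprr2h was at 34.5 and 331 CPM in the first part and at 45.2 and 654 CPM in the second. The Sprr1b level was 289 and 498 CPM in the first part, a 1.73-fold difference, and 521 and 1255 CPM in the second. Each of these values of the Lor and Krt79 part rests on 28 control cells. With the parts weighted equally, an alternative chosen after seeing the data, the log2 difference fell to 2.05 for Sprr1a and to 2.56 for Sprr2d.

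**Figure D2:**
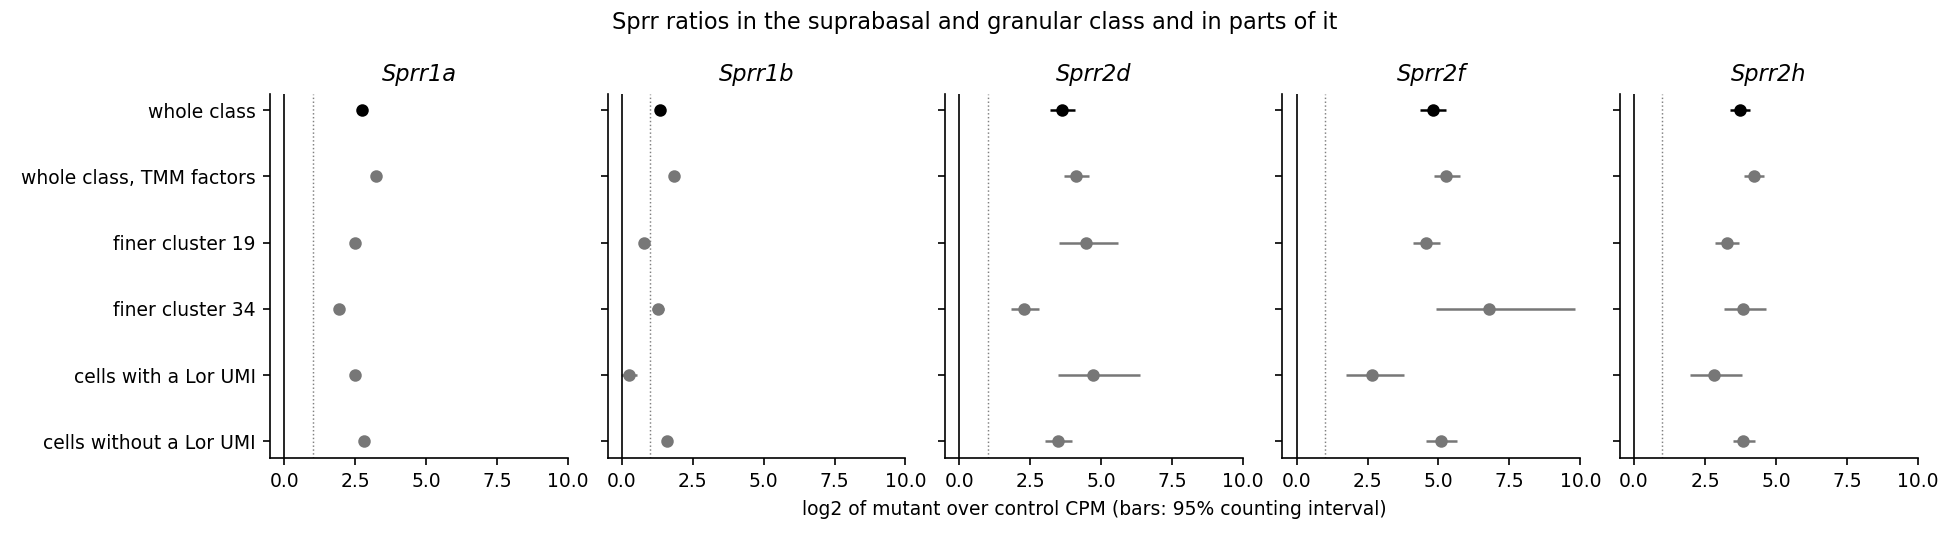
Log2 of mutant over control CPM of each gene (horizontal axis, 95% counting intervals) in the whole suprabasal and granular class, with TMM factors, in finer clusters 19 and 34 and in cells with and without a Lor UMI; the dotted line marks a 2-fold ratio. Every point lies right of 0, and the interval reaches 0 for Sprr1b in cells with a Lor UMI alone.

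Markers of other cell types also differed between the libraries in this class. The summed level of the 8 basal markers was 5963 CPM in the control and 3291 CPM in the mutant, that of the 7 upper follicle markers 7948 and 11920 CPM, and that of the 9 granular markers 2429 and 6909 CPM. Of the granular markers, Asprv1 made up 492 and 5303 CPM, while Lor was at 1250 and 657 CPM. Melanocyte markers, 6 genes, summed to 1263 CPM in the control and 344 CPM in the mutant, the 8 T or NK cell markers to 162 and 25.6 CPM, and the 4 erythroid markers to 488 and 1124 CPM. Bulge markers summed to 2321 and 812 CPM, inner root sheath markers to 388 and 154 CPM, outer root sheath markers to 278 and 582 CPM and companion layer or inner bulge markers to 71.6 and 257 CPM. All 5 macrophage markers were at 0 in the control and 3 of 5 in the mutant. The median share of mitochondrial UMIs was 2.25% and 3.58%. The part of these differences in the Sprr ratios was not tested.

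The mutant rise was seen in more cells with a transcript as well as in higher levels. With every cell thinned to 1500 UMIs, which removes differences in depth and leaves 218 control and 532 mutant cells, a Sprr1a UMI was found in 30.3% of the control (24.2% to 36.8%, exact Clopper-Pearson) and 79.5% of the mutant cells (75.8% to 82.9%). Unthinned, the shares were 43.8% and 87.2%. Sprr1b was found in 22.0% (16.7% to 28.1%) and 37.4% (33.3% to 41.7%) of the thinned cells. Sprr2d was found in 1.84% of the control and 10.2% of the mutant cells, Sprr2f in 1.38% and 15.6%, and Sprr2h in 1.38% and 25%. The control and mutant intervals did not overlap for any of the 5 genes.

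The T or NK cell class, which should lack these transcripts, gives the level of free RNA. Its cells were shallower, with medians of 2283 and 1947 UMIs against 7205 and 7979 in the suprabasal-like class. Thinned to the same 1500 UMIs, 2.60% of its control and 3.73% of its mutant cells had a Sprr1a UMI, and at most 0.392% had a UMI of a Sprr2 member. Its Sprr1a level was 22.5 CPM in the control and 34.0 CPM in the mutant, and no Sprr2 member exceeded 1.83 CPM there. Other cells that should lack Sprr1a differed from each other. It was at 24.46 CPM in the control and 20.55 CPM in the mutant fibroblast-like cells. Its level was lower, at 5.74 and 14.8 CPM, in melanocyte-like and, at 5.72 and 16.2 CPM, in dermal papilla-like cells. Levels of Sprr1a in cluster 0 (22.8 and 31.6 CPM) and in the hair matrix (35.1 and 28.7 CPM) were near that of the T or NK cells and above those of the melanocyte-like and dermal papilla-like cells, so whether they exceed free RNA depends on the class taken as background.

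**Figure D3:**
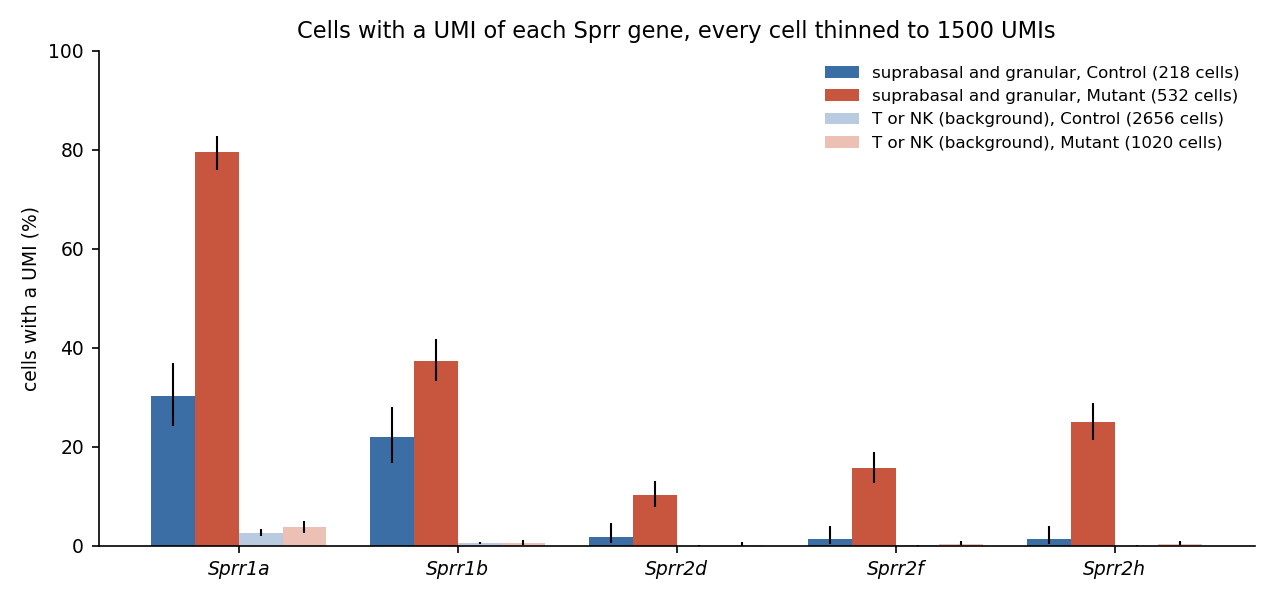
Percent of cells with at least 1 UMI of each gene, every cell thinned to 1500 UMIs, in the suprabasal and granular class (dark bars) and in T or NK cells (pale bars), with exact 95% Clopper-Pearson intervals. The mutant bars stand above the control bars for all 5 genes, with Sprr1a at 79.5% and Sprr2d at 10.2%.

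Within the mutant suprabasal-like cells, the genes differed in how their transcripts were spread. Sprr1a was broad: the median cell had 43.7 UMIs per 10000, and 50% of all Sprr1a UMIs lay in 91 of 537 cells. Sprr1b was narrower, with a median of 1.35 per 10000 and 50% of its UMIs in 42 cells. The median was 0 for all 3 Sprr2 genes, and 50% of the UMIs lay in 33 cells for Sprr2h, 16 for Sprr2f and 12 for Sprr2d. Single mutant cells held up to 192 UMIs of Sprr2f, 93 of Sprr2d and 83 of Sprr2h, against at most 10, 9 and 15 in a control cell. A few very high cells thus carry most Sprr2 transcripts. Without the 5 cells with most Sprr2f UMIs, the mutant level was 448 CPM, against 20.9 CPM in all control cells of the class.

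**Figure D4:**
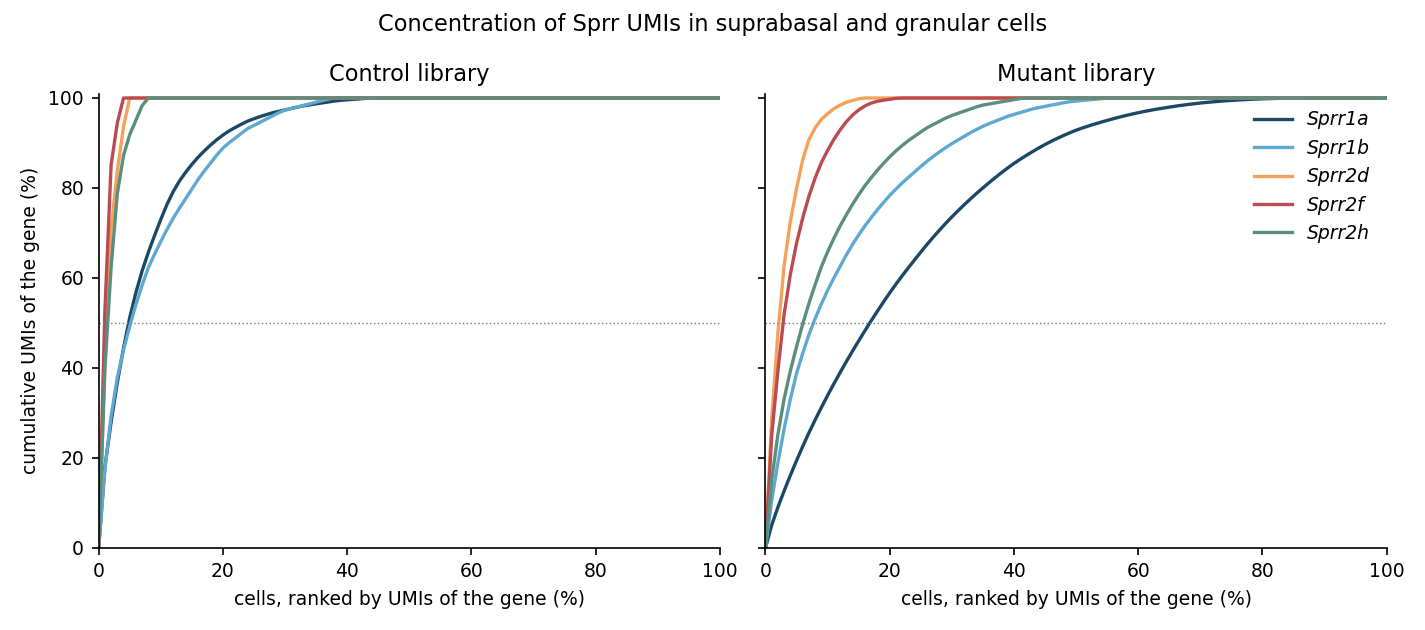
Cumulative percent of each gene's UMIs (vertical axis) over suprabasal and granular cells ranked by that gene's UMIs (horizontal axis, percent of cells) in the control and mutant library, with 50% as a dotted line. In the mutant library Sprr1a rises most slowly and Sprr2d and Sprr2f most steeply, with 50% of the UMIs in 91, 12 and 16 of 537 cells.

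Cells with a Sprr2 gene lay almost wholly within the cells with Sprr1a in the mutant library. Of the 83 mutant suprabasal-like cells with a Sprr2d UMI, 83 had Sprr1a, 77 (92.8%) had Sprr2h and 49 (59.0%) had Sprr2f. Of the 115 cells with Sprr2f, 114 had Sprr1a and 100 (87%) had Sprr2h, against 29.1% with Sprr2h among the 422 cells without Sprr2f. In the other direction, 46.4% of the 468 cells with Sprr1a had Sprr2h and 17.7% had Sprr2d. Sprr1a thus accompanied nearly every detected Sprr2 gene, but it was common in the remaining cells too. It was found in 84.8% of cells without Sprr2d, 83.9% without Sprr2f and 79.9% without Sprr2h. The other members overlapped in part. Depth differed with detection: the median UMI total was 8439 in cells with Sprr1a and 11955 in cells with Sprr2d, against 4873 in cells without Sprr1a, and its part in the overlap was not tested beyond the thinned counts. Thinned to 1500 UMIs, 8 of 218 control cells (3.67%) and 169 of 532 mutant cells (31.8%) had at least 1 of the 3 Sprr2 members, and 24 mutant and 0 control cells had all 3. The control count of 0 allows a share of up to 1.38%.

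**Figure D5:**
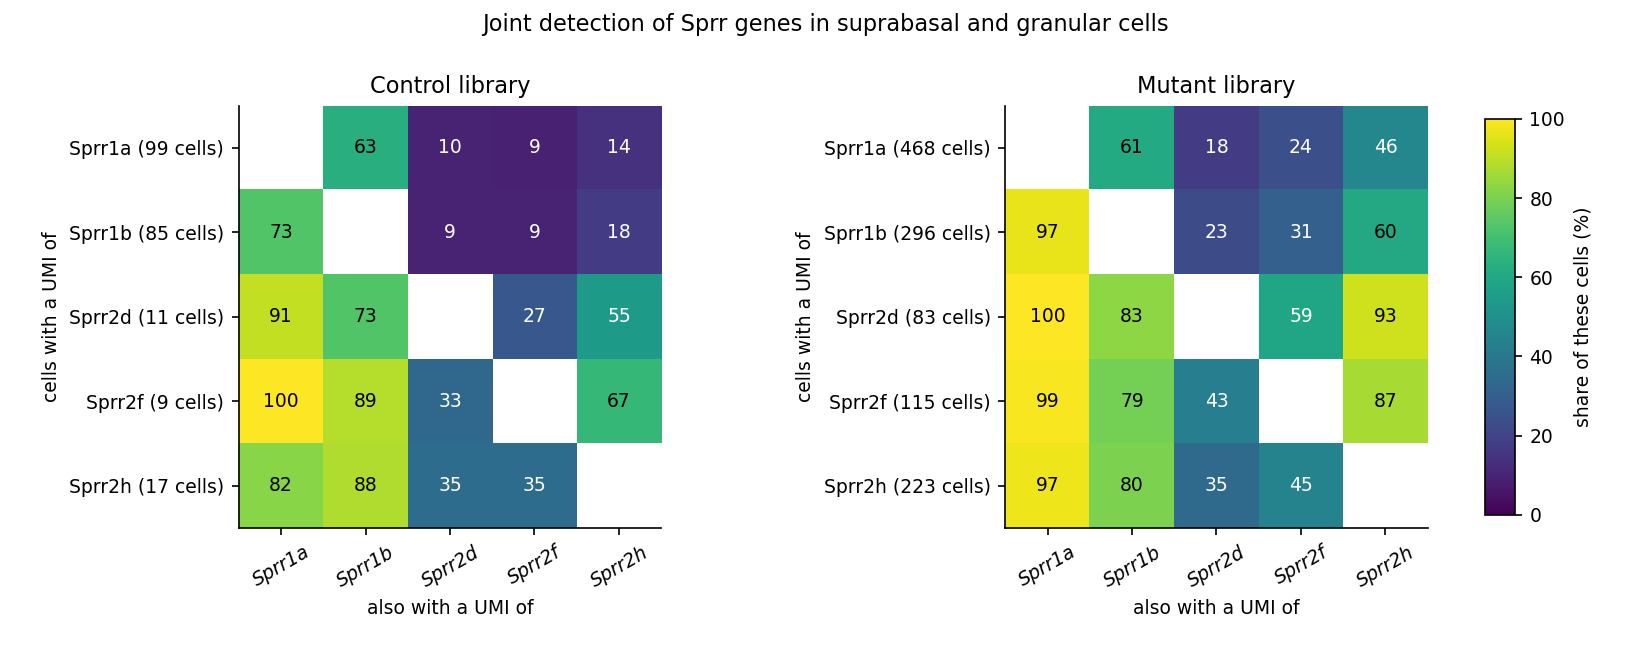
Percent of suprabasal and granular cells with a UMI of the row gene that also had a UMI of the column gene, unthinned, in the control and mutant library. In the mutant library nearly every cell with a Sprr2 gene also had Sprr1a (97.3% to 100%), against 79.9% to 84.8% of cells without that gene. Of cells with Sprr1a, 17.7% had Sprr2d. The control rows of Sprr2 genes rest on 9 to 17 cells.

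Outside the suprabasal-like class, Sprr1a was the member with a sizeable level in several classes. In the control library its order ran from cluster 15 (1374 CPM) through the suprabasal-like class (1117), inner root sheath-like cells (591), cluster 4 (398), the outer root sheath (117) and interfollicular basal cells (44.7). The levels in the hair cortex, cluster 19 and the hair matrix, 38.8, 37.2 and 35.1 CPM, had overlapping intervals. In the mutant library the suprabasal-like class (7466 CPM) stood above cluster 15 (4121), followed by the inner root sheath (654), cluster 4 (474), the outer root sheath (162) and basal cells (127).

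Cluster 15 (309 control and 372 mutant cells) carries markers of the upper follicle and of sebaceous gland cells in nearly equal measure and was given no name. There Sprr1a rose from 1374 CPM (1339 to 1410) to 4121 CPM (4050 to 4193), a 3.00-fold difference, and was the member called, in a class where 5.45% of genes were called higher. In a finer clustering the Krt79- and Cst6-rich part of cluster 15 (115 and 175 cells) had 3285 and 6840 CPM of Sprr1a, and the Scd1-rich part (188 and 189 cells) had 341 and 766 CPM, 2.08-fold and 2.25-fold. With each library clustered on its own, the ratio was 1.16-fold and no longer large. None of the other members had a large ratio in this class. Sprr1b was at 52.6 and 55.5 CPM with overlapping intervals, Sprr2f at 16.7 and 14.2 CPM and Sprr2h at 4.06 and 7.10 CPM. This depended on the cell filter: with at least 1000 genes and at most 10% mitochondrial UMIs, and the cells clustered anew, Sprr1b was at 85.5 and 337 CPM in the matching class and was called higher together with Sprr1a. Within the Krt79- and Cst6-rich part, Sprr1b was lower in the mutant, 120 CPM in the control and 49.7 CPM in the mutant. Sprr2d had 0 UMIs in 309 control cells, which allows up to 0.717 CPM, and 2 UMIs in 372 mutant cells. In the control library this cluster held 37.2% of all Sprr2f UMIs but none of Sprr2d, so these 2 Sprr2 genes differed in where they were detected.

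In interfollicular basal-like cells (966 control and 1362 mutant cells), Sprr1a was at 44.7 and 127 CPM, a 2.84-fold ratio called large in a class where 9.2% of genes were called higher. The ratio was not seen within clusters, but these nearly follow the libraries, so a comparison within them cannot decide whether the call holds. The class joins cluster 8, which holds 932 of the control cells, and cluster 3, which holds 1316 of the mutant cells. Within cluster 3 Sprr1a was at 129 CPM in both libraries (34 control cells, log2 0.007, -0.484 to 0.544). Within cluster 8 it was at 41.9 CPM in the control and 24.9 CPM in the mutant (46 mutant cells with 5 UMIs, log2 -0.75, -2.38 to 0.487). With the clusters weighted equally the log2 difference was -0.145. The UMIs were also held by few cells, 50% of them by 23 control and 22 mutant cells, and without the 5 cells with most UMIs the ratio was no longer called. Sprr2f and Sprr2h were at 2.48 and 0.372 CPM in the control and 16 and 5.67 CPM in the mutant, below the 100 CPM minimum, with 50 of the 141 mutant Sprr2f UMIs in 1 cell. Within cluster 3 the order was the opposite for both, 26.5 and 16.4 CPM for Sprr2f and 11.3 and 5.80 CPM for Sprr2h, from 7 and 3 control UMIs. Sprr1b was lower in the mutant basal-like cells, at 11 CPM in the control and 6.57 CPM in the mutant (log2 -0.75, -1.25 to -0.25), and was below the minimum too. In the T or NK cells, the background of free RNA, Sprr1b was at 6.35 and 3.65 CPM (log2 -0.80, -1.94 to 0.19). Whether the basal-like difference goes beyond free RNA was not tested.

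In the other follicle classes no member had a large ratio. Sprr1a was at 117 CPM in the control and 162 CPM in the mutant outer root sheath, where 1.37% of genes were called higher. In cluster 4, which has outer root sheath and companion layer markers, it was at 398 and 474 CPM, with 1.74% of genes called. In the inner root sheath-like cells it was at 591 CPM (580 to 602) and 654 CPM (628 to 680), with 2.5% called. These inner root sheath transcripts were concentrated, with 50% of the control UMIs in 13 of 763 cells and up to 967 UMIs in 1 cell. In the hair matrix and in the dividing cells of cluster 0 no member reached 100 CPM, and the background shares were 1.37% and 2.94%. Sprr1b was below 20 CPM in each of these 5 classes, and no Sprr2 member exceeded 2.65 CPM. Sprr1b had a further site of expression in cluster 19, which has medulla and matrix markers and was too small to compare (174 and 318 cells), at 76.4 CPM in the control and 70.5 CPM in the mutant, where Sprr1a was at 37.2 and 38.3 CPM.

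Of the 10 other Sprr genes in the files, 3 had at least 100 UMIs. In the suprabasal-like class Sprr2i rose from 9.93 CPM to 115 CPM (log2 3.53, 2.87 to 4.27). Sprr2e was at 28.7 and 88.4 CPM and Sprr2j-ps at 4.70 and 32.7 CPM, both below the 100 CPM minimum. No UMI of Sprr2a1, Sprr2a2 or Sprr3 was counted in either library, and Sprr2k stood at 3.66 CPM in the control and 1.30 CPM in the mutant. The annotated spans of Sprr2a1 and Sprr2a2 overlap on the plus strand, and whether reads could be assigned to either gene was not tested. The lack of UMIs therefore does not show that Sprr2a1 and Sprr2a2 were not expressed. Sprr2e, Sprr2i and Sprr2j-ps lie between Sprr2d and Sprr1b on chromosome 3, as does Sprr2k, while Sprr3 lies between Sprr1b and Sprr1a. Sprr2k had 7 control and 6 mutant UMIs in the suprabasal-like class (log2 -1.49, -3.34 to 0.305) and Sprr3 had none, too few to compare. Any part of gene position in the ratios was not tested.

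Other cornified envelope genes were compared in the suprabasal-like class by list. Over all genes at 100 CPM in this class, 10.9% were called higher and 10.2% lower. Of 13 envelope proteins, 9 reached 100 CPM, 4 rose and none fell. The 4 were Cnfn (cornifelin, 138 to 741 CPM), Cdsn (corneodesmosin, 55.4 to 292 CPM), Ivl (involucrin, 135 to 560 CPM) and Sbsn (suprabasin, 3714 to 7735 CPM). The list's median was 0.45 on the log2 scale against -0.28 for all genes of the class. Loricrin did not follow the Sprr genes, at 1250 CPM in the control and 657 CPM in the mutant. Of 6 crosslinking and scaffold genes at 100 CPM, Asprv1, which encodes a protease that processes filaggrin, rose from 492 to 5303 CPM. Dsp (865 and 1255 CPM), Csta1 (93.5 and 126 CPM) and Evpl (141 and 165 CPM) had no large ratio. Of the stress keratins Krt16 rose from 536 to 6005 CPM, and Krt17 was at 1951 and 2727 CPM. None of the 5 S100 genes at 100 CPM had a large ratio, with S100a6 at 373 and 282 CPM and S100a16 at 580 and 723 CPM, and no gene of the late cornified envelope (Lce) family reached 100 CPM.

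All 21 transcription factors listed for their known part in Sprr control reached 100 CPM in this class. Of these, 4 rose (19%, against 10.9% of all genes), among them Cebpa (151 to 499 CPM), Ehf (137 to 305 CPM) and Grhl3 (80 to 216 CPM). A further 8 fell (38.1%, against 10.2% of all genes), namely Atf3, Fos, Fosb, Jun, Junb, Jund, Ovol1 and Trp63. Fos fell from 1648 to 144 CPM, Atf3 from 2231 to 229 CPM and Fosb from 542 to 158 CPM. The other Fos family members Fosl1 (253 and 354 CPM) and Fosl2 (109 and 143 CPM) had no large ratio. The members with the AP-1 word printed above were thus higher in the library in which transcripts of Fos, Fosb, Jun, Junb and Jund were lower. The AP-1, octamer and TATA words also occur in Sprr2b, Sprr2e, Sprr2i and Sprr2k. Of these, Sprr2e (28.7 and 88.4 CPM) and Sprr2i (9.93 and 115 CPM) were higher in the mutant. Sprr2b (0 and 1.73 CPM) and Sprr2k (3.66 and 1.30 CPM) were near absent in both libraries. Fos, Fosb, Jun, Junb, Jund and Atf3 fell by the same rule in the interfollicular basal-like class, where Sprr levels were low. In cluster 15, the other class in which Sprr1a rose, Fos (1240 to 435 CPM) and Atf3 (1602 to 588 CPM) fell, whereas Jun (3542 and 2512 CPM), Junb, Jund and Fosb had no large ratio. Fos and Jun transcripts also respond to tissue dissociation, and their part in the Sprr ratios was not tested.

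Across 24 class-by-library levels of 12 classes, the genes most like the summed Sprr2 members were Dnase1l3 (Pearson r 0.948), Spink5 (0.937), Krtdap (0.937), Sdcbp2 (0.934) and Slc6a14 (0.931), of 3939 genes compared. Dnase1l3 was at 88.8 and 406 CPM in the suprabasal-like class, but at 8.84 and 14.2 CPM in cluster 15. The genes most like the summed Sprr1 members were Klk7 (0.942), Sbsn (0.938), Defb1 (0.911), 4833423E24Rik (0.909) and Crct1 (0.908). Klk7, a protease of the stratum corneum, was at 364 and 2457 CPM in the suprabasal-like class and at 547 and 2396 CPM in cluster 15, the pair of classes in which Sprr1a was highest. A high r did not always go with a higher mutant level. 4833423E24Rik was at 102 and 61.1 CPM in the suprabasal-like class, where the other genes named were higher in the mutant. Crct1 was at 395 and 955 CPM there, but at 87.2 and 65.5 CPM in cluster 15. The points share 2 libraries and their depth, so these correlations are descriptions.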

How the data were processed

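The 5 members, the gene lists and the tests were chosen with earlier results of these data known. Single-cell RNA was measured in 4 listed control and 16 listed mutant samples with 10x Genomics 3' v3 chemistry, per the labels. Each group's deposited matrix holds raw counts (UMIs) of every gene in every barcode. The submitters' processing notes name the mm10 (GRCm38) build, Cell Ranger 3.0.2 and Seurat (3.0.0, 3.1.0). The control matrix held 16973 barcodes with 140880809 UMIs and the mutant matrix 13411 with 97817173.

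Barcodes under 500 genes or above 15% mitochondrial UMIs were dropped. Scrublet (scanpy 1.11.5) calls, 413 control (2.92%) and 408 mutant cells (3.56%), were removed as doublets. Both libraries were clustered together without integration (2000 variable genes without Sprr, cell cycle and sex-linked genes, 30 components, 15 neighbours, Leiden resolution 1, leidenalg 0.10.2). A cluster was named X-like where 3 or more markers of the leading set were detected, its score reached 1 and the runner-up trailed by 0.3 or more. No name was given where another set had as many markers among the cluster's 10 leading genes. Cluster 25 (171 control and 8 mutant cells), which led on basal markers, stayed unnamed for this reason and is not in the basal-like class. UMIs were summed per class and divided by the class total (CPM). Ratios have exact conditional intervals for 2 Poisson counts, levels exact Poisson intervals and shares Clopper-Pearson intervals, all at 95% (scipy 1.17.1). The size rule was tested on simulated Poisson counts, the model of the intervals, without spread between cells or animals. That test therefore checks the working of the rule and not its error in these data. A count of 0 was given the limit that 3 counts allow.

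Named are the 5 members, other Sprr genes with at least 100 UMIs, up to 4 genes of each list with the largest ratios at 100 CPM, and the 5 genes most alike by Pearson correlation of log2(CPM + 1). Other genes, such as Lor, Sprr2k, Sprr3, Jun, Fosl1 and Fosl2, were named after their values were seen, and the finer clusters were added after seeing the data. Alternatives covered TMM (edgeR 4.0.16) and DESeq2 1.42.0 scaling factors, cell filters, doublets, clustering, thinning, left-out cells and thresholds. The octamer and TATA words were added to the AP-1, ETS and CACCC words. Protein sequences were not used here. The result of 1 listed transcription factor is not reported here.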

Additional observations from a re-analysis of the deposited data

How the results depend on the processing

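Some alternatives can only raise a ratio, since TMM factors add 0.49 and DESeq2 size factors 0.48 to each ratio of the suprabasal-like class. All 80 alternative values of the 5 members in this class were positive, and 41 of them lay within the 95% counting interval of the reported ratio. The others follow, as log2 of mutant over control in the order Sprr1a, Sprr1b, Sprr2d, Sprr2f, Sprr2h as far as each gene moved. TMM factors gave 3.23 (Sprr1a), 1.85 (Sprr1b), 4.12 (Sprr2d) and 4.21 (Sprr2h), and DESeq2 size factors gave 3.22, 1.84, 4.12 and 4.21. The mean of per-cell CPM gave 3.06, 1.58, 4.18 and 4.13 for the same 4 genes. Leaving out the 5 cells with most UMIs in each library gave 3.14, 1.72, 5.19, 7.37 and 5.07 for the 5 genes. In the control, 50% of the UMIs of each Sprr2 member lay in 3 or 4 cells, against 12 to 33 in the mutant. This setting thus removes most control UMIs of the Sprr2 members and tends to raise their ratios, so it is a weak check on them. Cells with a Lor UMI gave 2.47, 0.24, 4.72, 2.67 and 2.81. Keeping cells of at most 5% mitochondrial UMIs gave 2.90 for Sprr1a and 1.52 for Sprr1b. Thinning to 1500 UMIs gave 3.21 for Sprr1a, 1.62 for Sprr1b and 5.37 for Sprr2h. Resolution 0.5 gave 1.75 for Sprr1a, 3.91 for Sprr2f and 4.10 for Sprr2h. Sprr1a was 2.54 with the stricter cell filter (1000 genes, 10% mitochondrial UMIs) and with doublets kept (2.54), 2.0 after clustering the libraries separately and 1.96 when clustered without genes of large ratio. Sprr1b was 1.01 after separate clustering and 1.6 in cells without a Lor UMI. Weighting the finer clusters equally, chosen after seeing the data, gave 2.05 for Sprr1a, 1.11 for Sprr1b and 2.56 for Sprr2d.

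In interfollicular basal-like cells Sprr1a reversed to -0.145 with clusters 3 and 8 weighted equally. The count of members called there went from 1 to 0 with the stricter cell filter, separate clustering, thinning, without the 5 cells with most UMIs, and at 4-fold. In cluster 15 the count went from 1 to 2 (Sprr1b added) with the stricter cell filter, in a matching class that need not hold the same cells. It went to 0 with separate clustering and at 4-fold. Beyond the constructions named, the cause was not tested. With 1 library per group, animals, batches and the start of tamoxifen add error that no interval here covers. No paired analysis was possible because each group is 1 pooled matrix.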

Other observations

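Langerhans-like cells (66 control and 78 mutant cells) had more Sprr2f and Sprr2h UMIs than T or NK cells in the mutant library, 37.8 and 38.9 CPM, against 2.49 and 0 CPM in the control. All 32 Sprr2f and 33 Sprr2h UMIs lay in 2 mutant cells each. The median depth of this class was 18184 UMIs in the control and 4488 UMIs in the mutant.

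The Sprr genes outside the 5 members also differed in where their few UMIs lay. Of 66 Sprr2a3 UMIs in the control library, 68.2% were in interfollicular basal-like cells, and the mutant library held 9. Of 27 Sprr2b UMIs in the control, 77.8% were in outer root sheath-like cells. No explanation was tested for either.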
